A study of Mus musculus with 6 samples.

Results

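Ly6c2, Ly6i and Thy1 encode small surface proteins that are held on the outer face of the cell membrane by a glycosylphosphatidylinositol (GPI) anchor. These 3 genes were taken by symbol from a table of 559 genes, and all 3 were found in it. They were chosen because they stood lower after oleic acid in these same libraries, so their difference between the groups is given below as a description and not as a test. Natural killer (NK) cells, lymphocytes that kill infected and tumour cells and secrete interferon gamma, were purified from spleens of C57BL/6 mice and sequenced in 6 bulk RNA libraries. In the OA group, 3 libraries came from NK cells kept for 36 h with oleic acid (OA) at 0.2 mM, a fatty acid with a single double bond. In the control group, 3 libraries came from NK cells kept for the same 36 h without OA. Per the labels the treatment was carried out a single time, and the labels do not say whether the replicates of a group came from separate mice or cultures. The p-values below therefore measure only the spread between these libraries, which may be technical. The study asked how exposure to OA alters gene expression in NK cells.

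A GPI anchor is a lipid with a sugar core that is joined to the end of a protein in the endoplasmic reticulum, so that the protein has no stretch crossing the membrane. Such proteins gather in cholesterol-rich patches of the membrane. Ly6 proteins share a compact, disulfide-bonded fold, and in mice several of them are induced by interferons. Ly6C, the antigen to which Ly6c2 contributes, marks inflammatory monocytes, plasma cells, and subsets of memory T cells and NK cells. Ly6i is a close relative of Ly6C. Thy1 (CD90) belongs to the immunoglobulin superfamily and in mice marks T cells, innate lymphoid cells and activated NK cells.

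On the mouse genome GRCm38 (GENCODE M21), Ly6c2 (gene identifier 100041546) lies on the minus strand of chromosome 15 from 75108158 to 75111970. Ly6i (57248) lies on the same strand of chromosome 15 from 74979534 to 74983430. Thy1 (21838) lies on the plus strand of chromosome 9 from 44043384 to 44048579. All 3 are protein-coding, with up to 4 exons in a transcript. The promoter of Ly6c2 is shown with that of Ifng, the interferon gamma gene, because the members are set against Ifng below. Both run 5′ to 3′ from 250 bases before to 50 bases after the start site, as RefSeq gives them on GRCm38.p6. That of Ly6c2 is chr15:75111922-75112221 on the minus strand, and that of Ifng is chr10:118440796-118441095 on the plus strand. Capitals mark matches to 4 motifs searched on both strands.

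Ly6c2: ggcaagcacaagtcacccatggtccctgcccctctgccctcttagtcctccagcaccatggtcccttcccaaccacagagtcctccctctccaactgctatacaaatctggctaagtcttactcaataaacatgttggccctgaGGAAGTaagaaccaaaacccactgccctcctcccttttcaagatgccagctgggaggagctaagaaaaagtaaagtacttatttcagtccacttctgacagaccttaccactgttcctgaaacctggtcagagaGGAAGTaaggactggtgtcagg

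Ifng: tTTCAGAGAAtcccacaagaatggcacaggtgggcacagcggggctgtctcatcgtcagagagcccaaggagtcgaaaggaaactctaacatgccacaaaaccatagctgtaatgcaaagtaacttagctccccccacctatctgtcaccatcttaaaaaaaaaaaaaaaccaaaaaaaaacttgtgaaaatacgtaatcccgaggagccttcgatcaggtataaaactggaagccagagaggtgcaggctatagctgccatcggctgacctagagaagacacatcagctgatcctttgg

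The motifs were the GAS element TTCNNNGAA, bound by STAT factors, the core of the interferon-stimulated response element, the T-box core AGGTGT and the ETS core GGAAGT. They can overlap one another, and no overlap occurred in these windows. In the Ly6c2 window the ETS core occurred at −106 and at 28 from the start site, and the other motifs had no match. In the Ifng window the GAS letters occurred at −249. Among 27025 RefSeq promoters of the same length, 24.1% held the ETS core, 8.47% the GAS letters, 13.9% the T-box core and 3.49% the interferon response core. A match is a description of the letters only.

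The deposited table lists genes with an authors' Q value under 0.05, the largest being 0.0499, and a gene outside it was not analysed here. Its values are TPM, a length-corrected share of all transcripts in a library. Summed over the table they came to 121857 TPM in the lowest and 126392 TPM in the highest library. Read numbers cannot be had from TPM, so depth and counting error are unknown. OA replicate 3 stood apart from the other libraries. The 7 listed heart muscle markers summed to 4214 TPM in it, to 303 TPM in OA replicate 2 and to 32.6 TPM in OA replicate 1, against 23.7 to 38.6 TPM in the control libraries. The sum in OA replicate 3 was 0.421% of the whole scale. Results are therefore also given without replicate 3 and for OA replicate 1 alone, a comparison added after the values were seen.

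Ly6c2 stood at 108, 87.5 and 78.3 TPM in OA replicates 1, 2 and 3, against 137, 137 and 144 TPM in control replicates 1, 2 and 3. The groups did not overlap, and the controls lay close together while the OA libraries were spread more widely. Its mean was 91.3 ± 15.3 TPM in OA and 139 ± 4.12 TPM in control (SD, n = 3 each), a ratio of 0.656 and a log2 difference of −0.62 (SE 0.126) on the log2(TPM + 1) scale. On this scale, by the size of the fall, it ranked 20 of the 559 genes, with Ly6i at 31 and Thy1 at 63. With OA replicate 1 alone against the 3 controls the log2 difference of Ly6c2 was −0.36. It was −0.49 without replicate 3 of both groups, −0.51 without OA replicate 3 and −0.74 without OA replicate 1.

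Ly6i stood at 389, 362 and 316 TPM in OA replicates 1, 2 and 3, against 507, 483 and 556 TPM in control replicates 1, 2 and 3. The highest OA library was below the lowest control library. Its mean was 355.6 ± 37.1 TPM in OA and 515 ± 37.4 TPM in control (SD, n = 3 each), a ratio of 0.690 and a log2 difference of −0.54 (SE 0.101). The spread between replicates, in TPM, was nearly the same in both groups, unlike that of Ly6c2. Without replicate 3 of both groups the log2 difference was −0.40, and with OA replicate 1 alone it was also −0.40.

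Thy1 stood at 682, 632 and 549 TPM in OA replicates 1, 2 and 3, against 812, 810.2 and 869 TPM in control replicates 1, 2 and 3. Again the groups did not overlap, with OA replicate 3 lowest and control replicate 3 highest. Its mean was 621 ± 67.1 TPM in OA and 830.4 ± 33.3 TPM in control (SD, n = 3 each), a ratio of 0.748 and a log2 difference of −0.42 (SE 0.0935). Without replicate 3 of both groups the log2 difference was −0.30, and with OA replicate 1 alone it was −0.28.

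**Figure D1:**
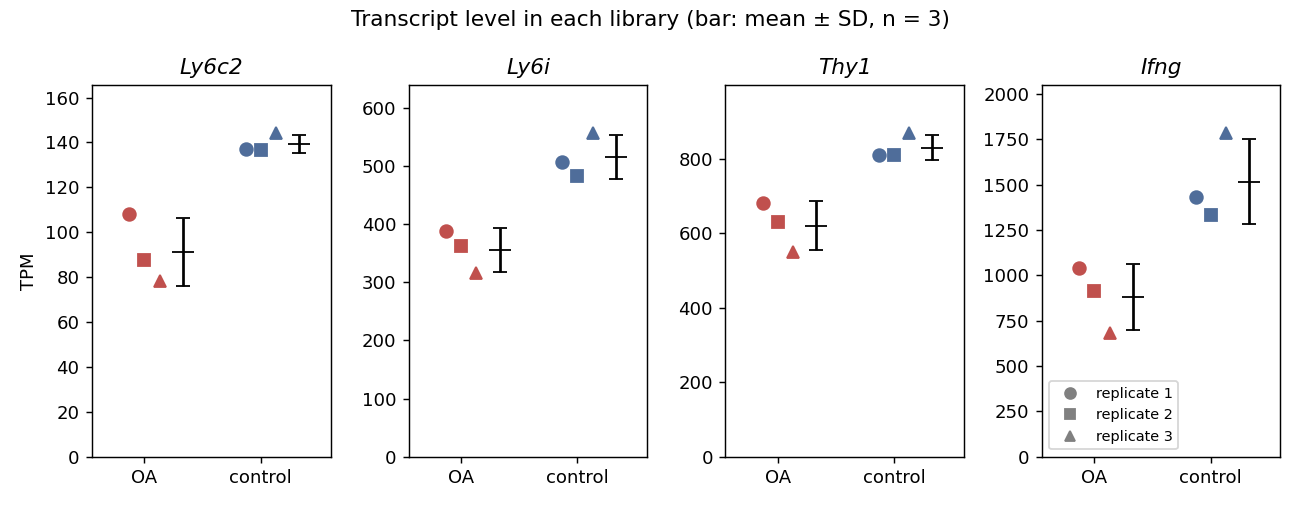
TPM of Ly6c2, Ly6i, Thy1 and Ifng in each library, with OA on the left and control on the right of each panel; each panel has its own axis from 0, symbols give the replicate number, and the bar is the mean ± SD of 3 libraries. In all 4 genes every OA library lies below every control library, with OA replicate 3 lowest and control replicate 3 highest.

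In TPM, Thy1 was the most abundant of the 3 in each of the 6 libraries and Ly6c2 the least, with Ly6i between them. By mean TPM over the 6 libraries Thy1 ranked 37, Ly6i 70 and Ly6c2 214 of 559 genes. Their libraries did not overlap in level with one another within either group. Per the authors' deposited table, the log2 fold change of OA over control was −0.60 for Ly6c2, −0.53 for Ly6i and −0.41 for Thy1. Their Q values there were 2.88e-05, 1.98e-09 and 4e-08, which ranked 57, 8 and 13 of the 559 genes by Q. The related gene Ly6a, which is not a member, ranked 6.

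In limma over all 559 genes, at a Benjamini-Hochberg adjusted p under 0.05, 3 of 3 members were called lower in OA, as were 40.1% of the genes in the table, and 36.0% were called higher. The groups did not overlap, with OA lower, for 3 of 3 members and for 48.5% of the genes in the table, and with OA higher for 45.1%. The members and the table were both chosen on this contrast, so nothing is read from these counts. The calls of the members were lost without control replicate 1 and without OA replicate 2, where 0 genes of the table were called (168 lower and 171 higher, and 168 lower and 159 higher, at an unadjusted p under 0.05). Leaving out control replicate 2 left 1 member called, and so did leaving out control replicate 3.

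The ratio of one member to another within a library is independent of a shared scale. Ly6i stood at 0.570, 0.573 and 0.574 of the Thy1 level in OA replicates 1, 2 and 3, against 0.624, 0.596 and 0.640 in control replicates 1, 2 and 3. The OA libraries were close to one another in this ratio and all below the controls. The ratio of Ly6c2 to Thy1 was 0.146 ± 0.0106 in OA and 0.168 ± 0.00173 in control (SD, n = 3 each), again without overlap. The ratio of Ly6c2 to Ly6i was 0.256 ± 0.0194 in OA and 0.271 ± 0.0121 in control (SD, n = 3 each), and its groups overlapped. These ratios restate levels of genes chosen on this contrast. The share of other gene pairs without overlap in such a ratio was not computed.

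Ifng encodes interferon gamma, the main cytokine made by activated NK cells. It stood at 1043, 911 and 683 TPM in OA replicates 1, 2 and 3, against 1433, 1335 and 1783 TPM in control replicates 1, 2 and 3. Its log2 difference was −0.80 (SE 0.195), larger in size than those of the 3 members, and −0.50 without replicate 3 of both groups. The 6 libraries fall into 2 separate groups of 3, so no pooled correlation across them is given, and likeness within the groups is described below without a test.

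Thy1 stood at 0.654, 0.694 and 0.805 of the Ifng level in OA replicates 1, 2 and 3, against 0.567, 0.607 and 0.487 in control replicates 1, 2 and 3. Every OA library was above every control library in this ratio. The ratio of Ly6i to Ifng was 0.411 ± 0.0462 in OA and 0.342 ± 0.0267 in control (SD, n = 3 each), also without overlap. The ratio of Ly6c2 to Ifng was 0.105 ± 0.00934 in OA and 0.0930 ± 0.0111 in control (SD, n = 3 each), and its groups overlapped. By the size of its fall Ifng ranked 11 of the 559 genes, and on average a gene that fell less rises against it. A higher ratio to Ifng is therefore no trait of the members. The share of other genes without overlap in this ratio was not computed.

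Within each group the libraries were ordered in the same way by all 4 genes: OA replicate 1 was highest and OA replicate 3 lowest, and control replicate 3 was highest and control replicate 2 lowest. This order was common in the table. It was found for 122 of the 272 genes that were lower in OA, or 44.9%, and for 21.8% of all 559 genes. The deviations of Ifng from its group means, on the log2(TPM + 1) scale, were 0.27, 0.07 and −0.34 in OA replicates 1, 2 and 3, and −0.07, −0.17 and 0.24 in control replicates 1, 2 and 3. Those of Ly6i were 0.13, 0.03 and −0.17 in the OA libraries and −0.02, −0.09 and 0.11 in the controls, smaller than those of Ifng in every library and of the same sign. Ly6c2 was high in OA replicate 1, at 0.25, and its controls deviated by no more than 0.05.

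**Figure D2:**
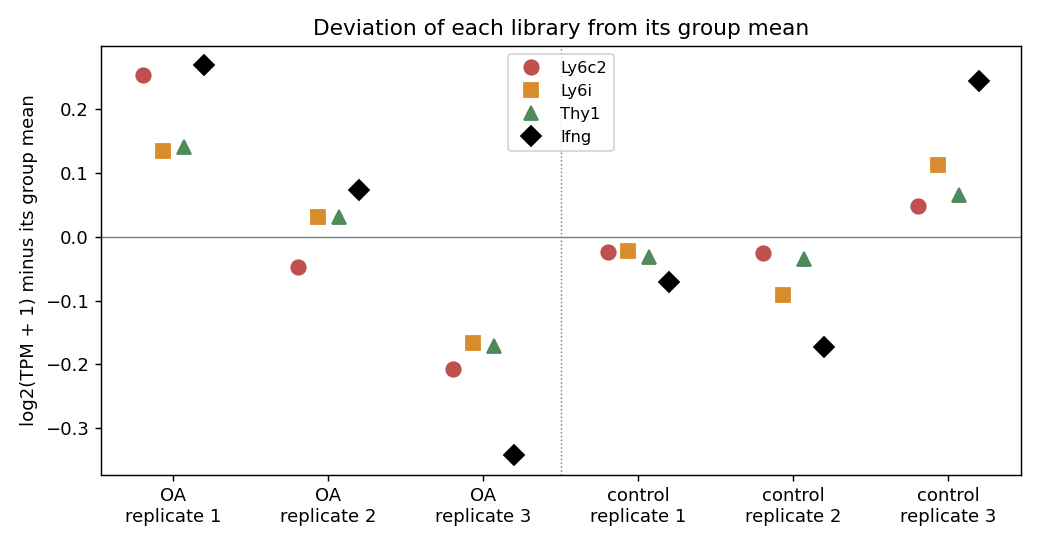
Deviation of log2(TPM + 1) from the mean of its own group for Ly6c2, Ly6i, Thy1 and Ifng in each of the 6 libraries, OA on the left. The symbols of Ly6i lie on the same side of 0 as those of Ifng in all 6 libraries and nearer to 0, for example at −0.17 against −0.34 in OA replicate 3.

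Likeness of pattern was described by Pearson's r of these deviations over the 6 libraries, among listed genes with a mean of at least 10 TPM. All genes were measured in the same 6 libraries, and high values were frequent: r was over 0.9 with Ly6i for 140 of 471 genes, with Thy1 for 139 and with Ly6c2 for 41. The genes most like Ly6i were Sh2d2a, an adaptor gene of T and NK cells (r = 0.9996), Atp10a (0.998), Ifng (0.998), the NK receptor gene Klrc1 (0.998) and the SLAM receptor gene Cd244a (0.995). Those most like Thy1 were Sp4 (0.999), Coro2a (0.998), the chemokine receptor gene Cxcr6 (0.998), Gm2808 (0.998) and Anxa6 (0.996). Those most like Ly6c2 were Srrt (0.984), Pram1 (0.983), Arf6 (0.976), Socs1, an inhibitor of cytokine signalling (0.973), and the NK receptor gene Klrc3 (0.967). Ifng ranked 3 of 471 genes for Ly6i, 51 for Thy1 (r = 0.961) and 77 for Ly6c2 (r = 0.848). Between members, r was 0.960 for Ly6i and Thy1, 0.931 for Thy1 and Ly6c2 and 0.858 for Ly6i and Ly6c2. Ly6c2 had a higher r with Thy1 than with Ifng, and nearly the same r with Ly6i (0.858) as with Ifng (0.848). Ly6i had its highest r of these with Ifng. These gaps rest on 6 libraries and were not tested.

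Among the rest of the Ly6 family, Ly6a and Ly6e fell and Ly6d and Plaur rose. Of 40 Ly6 and uPAR family genes other than the members, 5 were listed, and in limma 2 were called lower, 2 higher and 1 in neither direction. Over the 559 genes 40.1% were called lower and 36.0% higher, so this split is close to that of the table. Ly6a, which encodes the stem cell and lymphocyte activation antigen Sca-1, stood at 1625, 1551 and 1430 TPM in OA replicates 1, 2 and 3, against 1904, 1895 and 2045 TPM in control replicates 1, 2 and 3 (log2 −0.34, SE 0.0690, adjusted p = 0.026, limma). It was the most abundant listed gene of the family, and its ratio in TPM was 0.788. Ly6i was at 0.231 ± 0.00953 of the Ly6a level in OA and 0.264 ± 0.00870 in control (SD, n = 3 each), without overlap. For this ratio too, the share of other gene pairs without overlap was not computed. Every gene of the table was listed for a difference between these same libraries. The adjusted p-values of single genes, here and below, are therefore a description and no independent test.

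Ly6e, an interferon-inducible gene that is expressed in many tissues, averaged 1350 ± 88.4 TPM in OA and 1532 ± 31.0 TPM in control (SD, n = 3 each; adjusted p = 0.046, limma). Its call was lost in limma when the libraries were scaled to equal medians (adjusted p = 0.0915; 0.0274 to 0.142 over 13 alternatives, of which it passed 4). Ly6a, Ly6d and Plaur passed 9, 10 and 8 of the 13, and were lost without control replicate 1 and without OA replicate 2, as all calls were. Ly6d, which is known from developing B cells, stood at 176, 192 and 218 TPM in OA replicates 1, 2 and 3, against 125, 138 and 102 TPM in control replicates 1, 2 and 3 (log2 0.68, SE 0.141, adjusted p = 0.026, limma). It was higher in every OA library than in any control, opposite in direction to Ly6c2 and Ly6i. Plaur, which encodes the urokinase receptor, averaged 246.8 ± 7.42 TPM in OA and 210.6 ± 10.1 TPM in control (SD, n = 3 each) and rose. Gpihbp1, which encodes the endothelial carrier of lipoprotein lipase, did not pass (adjusted p = 0.119, limma). It was listed at 0.73, 0.98 and 10.9 TPM in OA replicates 1, 2 and 3, against 0.13, 0 and 0.49 TPM in control replicates 1, 2 and 3.

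The Ly6 genes form a cluster on chromosome 15. Between the outer ends of Ly6d and Gpihbp1, from 74762056 to 75599481 on GRCm38, GENCODE M21 annotates 19 protein-coding genes, of which 6 were listed. The 4 that were called lower in OA, Ly6e, Ly6i, Ly6a and Ly6c2, lie next to one another among the listed genes. Ly6d was called higher and Gpihbp1 was not called, and these 2 stand at the ends because they set the window. With these 2 at the ends, the other 4 listed genes are neighbours in the list whatever their direction. On the chromosome, the first base of Ly6i lies 128.6 kb before that of Ly6c2, that of Ly6a 113.3 kb, and that of Ly6c1, which was not listed, 64.1 kb. Thy1 is on another chromosome.

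**Figure D3:**
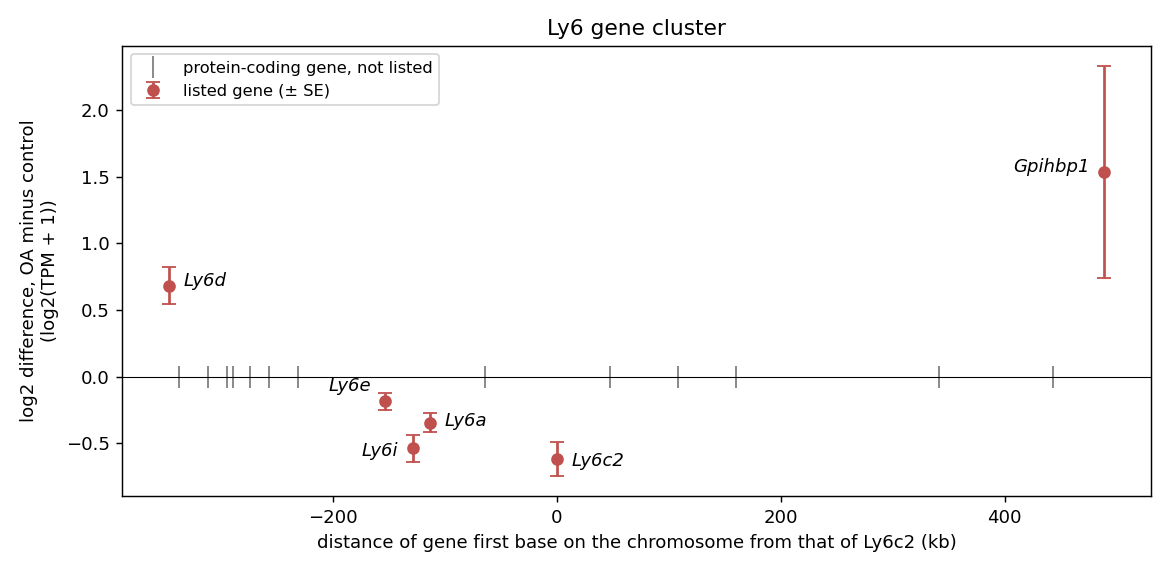
Log2 difference of OA minus control on the log2(TPM + 1) scale, with its standard error, for the 6 listed genes of the Ly6 cluster, against the distance in kb of each gene's first base from that of Ly6c2; grey ticks at 0 mark the protein-coding genes that were not listed. Ly6e, Ly6i, Ly6a and Ly6c2 lie below 0 and Ly6d above it; Gpihbp1, which was not called, has a standard error of 0.793.

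Ly6c1 and Ly6c2 are closely related copies, and their reads can be hard to assign. Of the distinct stretches of 100 bases in the GENCODE protein-coding transcripts of Ly6c2, 14.9% also occur in Ly6c1, and of those of 50 bases 30.8% do. For Ly6i and Thy1, 0% of the stretches of 100 bases occur in any other gene, and at 50 bases the shares were 4.76% for Ly6i and 0% for Thy1. The values of Ly6c2 are uncertain to the extent that such reads were divided between the copies.

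Of 52 other genes for GPI-anchored leukocyte proteins, 7 were listed, with 2 lower (Ly6a and Ly6e) and 5 higher in limma, where 40.1% of the table was called lower and 36.0% higher. Beside Ly6d and Plaur, the higher genes were Cd14, the lipopolysaccharide co-receptor of myeloid cells, Cd24a, the heat-stable antigen, and Alpl, an alkaline phosphatase. Cd14 stood at 617, 661 and 688 TPM in OA replicates 1, 2 and 3, against 469, 495 and 378 TPM in control replicates 1, 2 and 3. Cd24a averaged 78.7 ± 7.68 TPM in OA and 54.2 ± 4.88 TPM in control (SD, n = 3 each), and Alpl, the lowest in level, rose by 0.58 on the log2 scale. Without control replicate 2, 0 of the 7 were called lower and 3 higher. Without OA replicate 2 or without control replicate 1, 0 of the 7 were called in either direction. The median log2 difference of the 7 was 0.53, against 0.14 over all 559 genes. The table holds genes chosen for a difference in either direction, so its median is no level of unchanged genes: it was −0.29 over the 272 lower and 0.45 over the 287 higher genes, and turned to −0.13 over the 533 genes with a mean of at least 1 TPM. Of 34 genes that make or remodel the GPI anchor, 0 were listed.

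**Figure D4:**
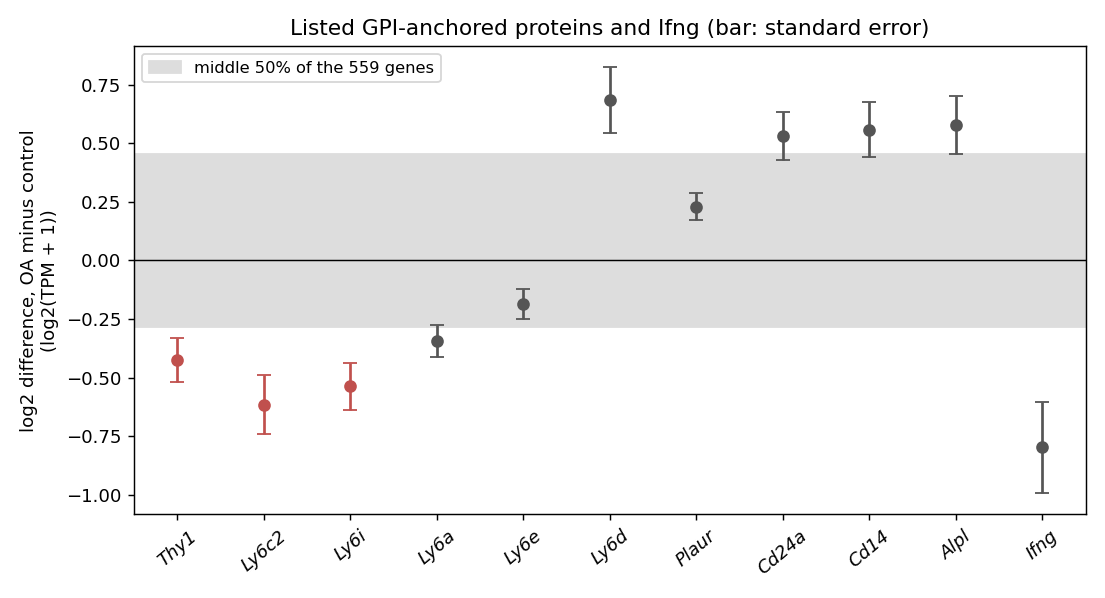
Log2 difference of OA minus control on the log2(TPM + 1) scale, with its standard error, for Thy1, Ly6c2 and Ly6i (red). The other listed genes for Ly6 family and GPI-anchored proteins, and Ifng, are in grey, with Gpihbp1 left out. The band is the middle 50% of all 559 genes, from −0.28 to 0.46. The 3 members, Ly6a and Ifng, the lowest at −0.80, lie below the band, with Ly6d, Cd24a, Cd14 and Alpl above it.

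Of 32 genes of the interferon gamma pathway and its targets other than the members, 19 were listed, including Ifng itself, Ly6a and Ly6e. This list was chosen with earlier results of these data known, among them the fall of Ifng, so its count is a description. All 19 fell in limma, where 40.1% of the table was called lower. Their median log2 difference was −0.35, against −0.29 over the 272 lower genes of the table and 0.14 over all 559. The count was 5 with libraries scaled to equal medians, 7 without OA replicate 3 and 3 without control replicate 3. It was 0 when OA replicate 2, control replicate 1 or control replicate 2 was left out. All 19 were lower in sign under each of these settings. Of 24 NK maturation and activation genes other than Ly6c2 and Thy1, 13 were listed, and limma called 10 lower, 1 higher and 2 in neither direction, beside the same 40.1% and 36.0% of the table. Among them the chemokine gene Xcl1 averaged 365.6 ± 34.5 TPM in OA and 527.5 ± 44.3 TPM in control, and Tnfsf10, the death ligand TRAIL, 9.62 ± 1.13 TPM in OA and 14.0 ± 1.01 TPM in control (SD, n = 3 each). Of these lower calls, 5 were left with equal medians, 1 on omitting control replicate 2, 2 on omitting control replicate 3, and 0 on omitting control replicate 1 or OA replicate 2.

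The members are made by several cell types, and markers of those cells differed between the groups in the same libraries. In bulk RNA, fewer cells of a type and less of a transcript per cell cannot be told apart. The marker counts below stand beside 40.1% of the 559 genes called lower in limma and 36.0% called higher. Of 8 NK markers 6 were listed and 6 fell in limma, with a summed level of 839 to 1097 TPM in OA and 1334 to 1668 TPM in control; Ncr1, which encodes NKp46, was at 79.1 to 105 TPM in OA and 126 to 140 TPM in control. Both T cell markers listed, of 9, fell (Cd28 and Icos), with a summed level of 194 to 239.7 TPM in OA and 259 to 291 TPM in control, as did Cxcr6, the 1 listed innate lymphoid marker of 6. Of 12 monocyte, macrophage and dendritic cell markers 6 were listed, of which 5 rose and Ccr2 fell, with sums of 1379 to 1488 TPM in OA and 944 to 1150 TPM in control. Of 9 B and plasma cell markers 4 were listed and rose, with sums of 315 to 359 TPM in OA and 209 to 255 TPM in control. Of 7 neutrophil, mast cell and basophil markers 2 were listed, of which Mmp9 rose and the basophil gene Mcpt8 fell. Of the 5 plasmacytoid dendritic cell markers 0 were listed. When any control library or OA replicate 2 was omitted, 0 NK and 0 T cell markers were called in limma; of the myeloid markers 3 rose without control replicate 2 and 0 without control replicate 1 or OA replicate 2, and of the B cell markers 2 and 0. With equal medians 3 NK markers were called lower, and Ccr2 lost its call. No listed NK, T, myeloid or B cell marker was at 0 in any library. The part of the cell mixture in the levels of Ly6c2, Ly6i and Thy1 was not tested.

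The members were also set against the 6 listed NK markers within each library, in ratios chosen after the values were seen. Against Ncr1, Ly6i stood at 3.71, 3.96 and 3.99 times the Ncr1 level in OA replicates 1, 2 and 3, against 3.95, 3.83 and 3.98 times in control replicates 1, 2 and 3. The groups overlapped, and the log2 difference of the ratio was −0.01. Ly6c2 to Ncr1 was 0.993 ± 0.0363 in OA and 1.06 ± 0.0282 in control (SD, n = 3 each), also with overlap. Thy1 to Ncr1 was 6.79 ± 0.249 in OA and 6.32 ± 0.106 in control (SD, n = 3 each), higher in every OA library than in any control. Ncr1 fell more than most of these markers, and the ratios depended on the marker. Over the 6 markers the log2 difference of the ratio ran from −0.26 to 0.04 for Ly6c2, from −0.17 to 0.13 for Ly6i and from −0.06 to 0.24 for Thy1. Ly6i was lower without overlap against 4 of the 6 (Klrk1, Klrd1, Eomes and Prf1), Ly6c2 against 1 (Klrk1), and Thy1 against 0, being higher without overlap against Ncr1 and Gzma. Against the sum of the 6 markers, in which Gzma was the most abundant, the log2 difference was −0.06 for Ly6c2 and 0.02 for Ly6i, both with overlap. For Thy1 it was 0.14, higher in OA without overlap. The share of other genes without overlap against these markers was not computed.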

How the data were processed

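Bulk RNA from purified splenic NK cells was measured in 3 OA and 3 control libraries. Per the labels' protocols, cells were lysed in TRIzol, total RNA was purified on columns, and an RNA-seq library kit for MGI sequencers was used. Per the submitters' processing notes, Bowtie2, RSEM 1.3.1, DESeq2 1.4.5 and mm10 were used, without roles or order; the annotation was not given in the sources used here. Per the file headers, the authors' deposited table holds TPM for each library, a mean TPM per group, and for each gene the log2 fold change (OA over control) with its p-value and Q value. TPM is scaled within a library, so abundant transcripts or the cell mixture shift it, and no count test was possible. How reads were divided between Ly6 copies can change the level of Ly6c2.

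Samples were grouped by the treatment label and columns matched by title. Values as log2(TPM + 1) of the 559 genes entered limma 3.58.1 (R 4.3.3) unfiltered and without covariates, with two-sided tests and a Benjamini-Hochberg adjusted p under 0.05; the code was tested on simulated data. No pair of libraries was identical. Named genes were the 3 members, Ifng, all listed members of the Ly6 and GPI-anchored lists, up to 4 of other lists by smallest p, and the 5 most alike genes for each member; ratios within a library and Ccr2 were added after the values were seen. Members and lists were chosen with earlier results of these data known. Alternatives were other pseudocounts, a level filter, equal medians of the 559 listed genes, another prior, the replicate number as a block, and libraries left out. Python 3.11.15, pandas 2.3.3 and matplotlib 3.10.9 made tables and plots.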

Additional observations from a re-analysis of the deposited data

How the results depend on the processing

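The log2 differences of Ly6c2, Ly6i, Thy1 and Ifng kept their sign under the 13 alternatives tried. For groups without overlap, neither another pseudocount nor leaving out libraries could have changed it. The level filter and the replicate block left these differences as they were. Only equal medians could have changed a sign, and there they were −0.63 for Ly6c2, −0.55 for Ly6i, −0.43 for Thy1 and −0.81 for Ifng. Leaving out each library in turn gave −0.74 to −0.51 for Ly6c2, −0.60 to −0.45 for Ly6i, −0.49 to −0.34 for Thy1 and −0.93 to −0.63 for Ifng. Values moved by more than the replicate spread without replicate 3 of both groups, to −0.50 for Ifng and −0.40 for Ly6i. They also did so for OA replicate 1 against the 3 controls, to −0.36 for Ly6c2, −0.40 for Ly6i and −0.28 for Thy1. The cause was not tested. Counts of called genes were less stable. With libraries scaled to equal medians 82 genes were called lower, against 224 as deposited, and 162 higher, against 201, so that the lower share of calls changed by more than 10 percentage points. Leaving out each library in turn gave 0 to 187 genes called lower and 0 to 177 called higher. With the replicate number as a block, limma called 0 genes lower and 0 higher (89 and 149 at an unadjusted p under 0.05), and none of the 3 members. Deviations of same-numbered libraries correlated at 0.327, −0.109 and −0.0808 for numbers 1, 2 and 3. Those of number 1 alone correlated best with each other. The highest correlation, 0.350, was between OA replicate 3 and control replicate 2. The numbers were not taken as pairs, though these values do not settle whether they are. TPM keeps no depth, so counting error could not be set against these differences.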
